A study of Mus musculus with 88 samples.

Results

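The 36 genes described here encode the proteins that detect, signal and repair DNA double-strand breaks. They were chosen by name out of 53749 gene rows in the count tables, but with earlier results of these data known. Shares of members set against all genes are therefore a description. The members fall into 5 roles: 7 break sensors and kinases, 6 genes of the chromatin platform that forms around γH2AX, 7 genes of non-homologous end joining, 11 genes of end resection and homologous recombination, and 5 genes of PARP enzymes, ligases and alternative end joining. Their RNA was followed in 73 nuclear RNA-seq libraries of 4-month-old male C57BL/6J mice, within a series of 88 samples that asked where breaks form in the brain after a learning experience and which cells respond. Contextual fear conditioning (CFC) placed mice in a new chamber where they received foot shocks; mice were euthanised 10 min (CFC10) or 30 min (CFC30) after placement, and naive mice were left in their home cage. Hippocampal (HIP) and medial prefrontal cortex (mPFC) nuclei were fixed, stained and sorted into neuronal (NeuN+) and non-neuronal (NeuN-) fractions, with 4 libraries per group in HIP and 3 in mPFC. In a second experiment, hippocampal nuclei from mice injected intraperitoneally with saline or with corticosterone at 2 mg/kg, the main glucocorticoid stress hormone of rodents, were collected 30 min later and sorted into NeuN+ neurons, GFAP+ astrocytes, PU.1+ microglia and nuclei negative for all 3 antigens (3X-, called oligodendrocyte-enriched in the labels), with 4 libraries per group. γH2AX ChIP-seq of unsorted HIP and mPFC from naive and CFC30 mice completed the series, each replicate a pool of 3 animals. None of the groups carried a transgene or a deletion. The labels do not say whether RNA libraries of a group came from separate animals, so p-values measure only the spread between these libraries.

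When both strands of DNA are cut, the MRE11–RAD50–NBN complex binds the ends and activates the kinase ATM, while ATR acts on resected, single-stranded DNA. These kinases phosphorylate the histone variant H2AX, and the resulting γH2AX is read by MDC1, which brings in the ubiquitin ligases RNF8 and RNF168 and, through them, factors that decide whether ends are protected or resected. Neurons no longer divide and therefore rely mostly on end joining by the Ku heterodimer, DNA-PKcs and the XRCC4–LIG4 ligase, because homologous recombination uses a sister chromatid as a template.

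Promoter windows were available for 27 of the 36 members in the RefSeq table (assembly GRCm38.p6, from 250 bases before to 50 bases after the start of transcription), some with more than 1 start; a gene was counted as holding a motif when any of its windows did. The windows of 3 genes on which the results below turn are shown: Brca2 and Xrcc5, whose RNA fell in neurons after CFC, and Parp1, whose RNA rose in neurons after corticosterone. Capitals mark matches, on either strand, to the cyclic AMP response element TGACGTCA in Brca2, to its core TGACG in Xrcc5 and to the GC box GGGCGG in Parp1.
Brca2 (chr5:150522371-150522670, plus strand): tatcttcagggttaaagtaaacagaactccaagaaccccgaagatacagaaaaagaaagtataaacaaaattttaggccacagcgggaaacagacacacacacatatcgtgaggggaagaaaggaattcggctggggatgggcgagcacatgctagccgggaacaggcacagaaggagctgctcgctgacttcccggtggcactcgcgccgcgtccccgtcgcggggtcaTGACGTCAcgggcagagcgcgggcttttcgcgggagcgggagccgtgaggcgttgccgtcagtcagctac
Xrcc5 (chr1:72307171-72307470, plus strand): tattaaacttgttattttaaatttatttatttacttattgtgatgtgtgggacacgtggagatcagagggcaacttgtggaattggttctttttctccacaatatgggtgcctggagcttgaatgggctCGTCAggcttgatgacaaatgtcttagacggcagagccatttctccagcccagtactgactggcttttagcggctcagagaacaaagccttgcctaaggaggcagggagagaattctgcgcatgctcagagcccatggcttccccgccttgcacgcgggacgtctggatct
Parp1 (chr1:180568641-180568940, plus strand): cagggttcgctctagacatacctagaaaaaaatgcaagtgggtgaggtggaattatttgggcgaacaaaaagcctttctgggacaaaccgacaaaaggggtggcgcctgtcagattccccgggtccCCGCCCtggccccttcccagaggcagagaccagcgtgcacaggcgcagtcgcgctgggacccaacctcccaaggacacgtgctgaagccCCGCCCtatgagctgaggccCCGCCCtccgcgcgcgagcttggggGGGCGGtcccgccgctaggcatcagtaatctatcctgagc
The Brca2 match began 20 bases before the transcription start; the full element was found in 1 of the 27 members (3.70%) and in 2.03% of all 27025 genes with a window. Its core TGACG, which lies inside the full element, was found in 12 of 27 members (44.4%) against 23.0% of all genes, and in 4 of the 7 matched genes among the 9 that fell at CFC30 in mPFC neurons (Atr, Xrcc5, Brca2 and Rad52). Parp1 held 4 GC boxes, a motif present in 21 of 27 members (77.8%) and in 38.2% of all genes. The glucocorticoid receptor core AGAACA, searched on both strands, was found in 4 members (Xrcc5, Lig4, Lig3 and Polq; 14.8%) and in 21.3% of all genes, and was not among the letters of the Parp1 window. The 27025 genes were not limited to those that reached the expression minimum, whereas all members were protein-coding. The shares therefore set unlike groups of genes side by side. These matches describe the letters of the windows and not binding.

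Library totals were 10561897 to 18271372 counts in HIP, 10577263 to 16392677 in mPFC and 5935395 to 12758257 in the corticosterone experiment. In 3X- corticosterone replicates 2 and 4, 29809 and 29529 genes had a count, against 22476 to 25838 in 3X- saline. Replicates 1 and 3 of 3X- corticosterone had 24435 and 26103. The part of this difference in the 3X- results was not tested. HIP NeuN- naive replicates 3 and 4 held identical counts for all 53749 genes and were counted as 1 library (n = 3). The sorted fractions carried their defining markers: the summed level of 5 microglial markers was 4395 to 4775 counts-per-million (CPM) in PU.1+ saline libraries against 2.5 to 3.7 CPM in NeuN+ saline, 5 astrocyte markers summed to 2472 to 3151 CPM in GFAP+, and 5 oligodendrocyte markers to 8807 to 9279 CPM in 3X-. Excitatory markers were not absent from GFAP+ nuclei (485 to 692 CPM) or PU.1+ nuclei (350.1 to 546 CPM), against 1435 to 1538 CPM in NeuN+. HIP and mPFC libraries were made with different versions of the same kit, so region and kit cannot be told apart.

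Levels between genes are compared as FPKM, here the CPM per kilobase of gene body, with introns included, and a mean over 0.2 FPKM in at least 1 group was required for a test. Of the 36 members, 22 to 27 reached that level in a given naive or saline group, and 5 to 10 lay above the median of all genes that reached it. In all, 7 members stayed below that minimum in every group: the checkpoint kinase Chek1, the end-joining factor Nhej1, the resection genes Rbbp8 and Exo1, the recombination genes Brca1 and Rad54l, and the polymerase Polq. In HIP NeuN+ naive nuclei the highest level was 2.38 ± 0.0843 FPKM (SD, n = 4) for Parp1 (chr1:180568924-180601254, GRCm38), which encodes the main ADP-ribosylating break sensor. Trp53bp1 (chr2:121193281-121271407), whose protein protects ends from resection, followed at 2.01 FPKM. H2afx itself (chr9:44334694-44336077), a gene with a body of only 1.384 kb, reached 0.508 ± 0.241 FPKM in those nuclei but only 4 to 16 counts per library, so that changes of H2afx RNA were poorly measured throughout. The map of mean FPKM shows the same few genes, Parp1, Trp53bp1, Rad52 and Rnf8, at the top of HIP neurons. Other gene models, 2 on the same strand (Gm28043 and Gm28052), covered 100% of the Rnf8 body. Levels and differences given for Rnf8 may therefore include shared reads, whose part was not tested.

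**Figure D1:**
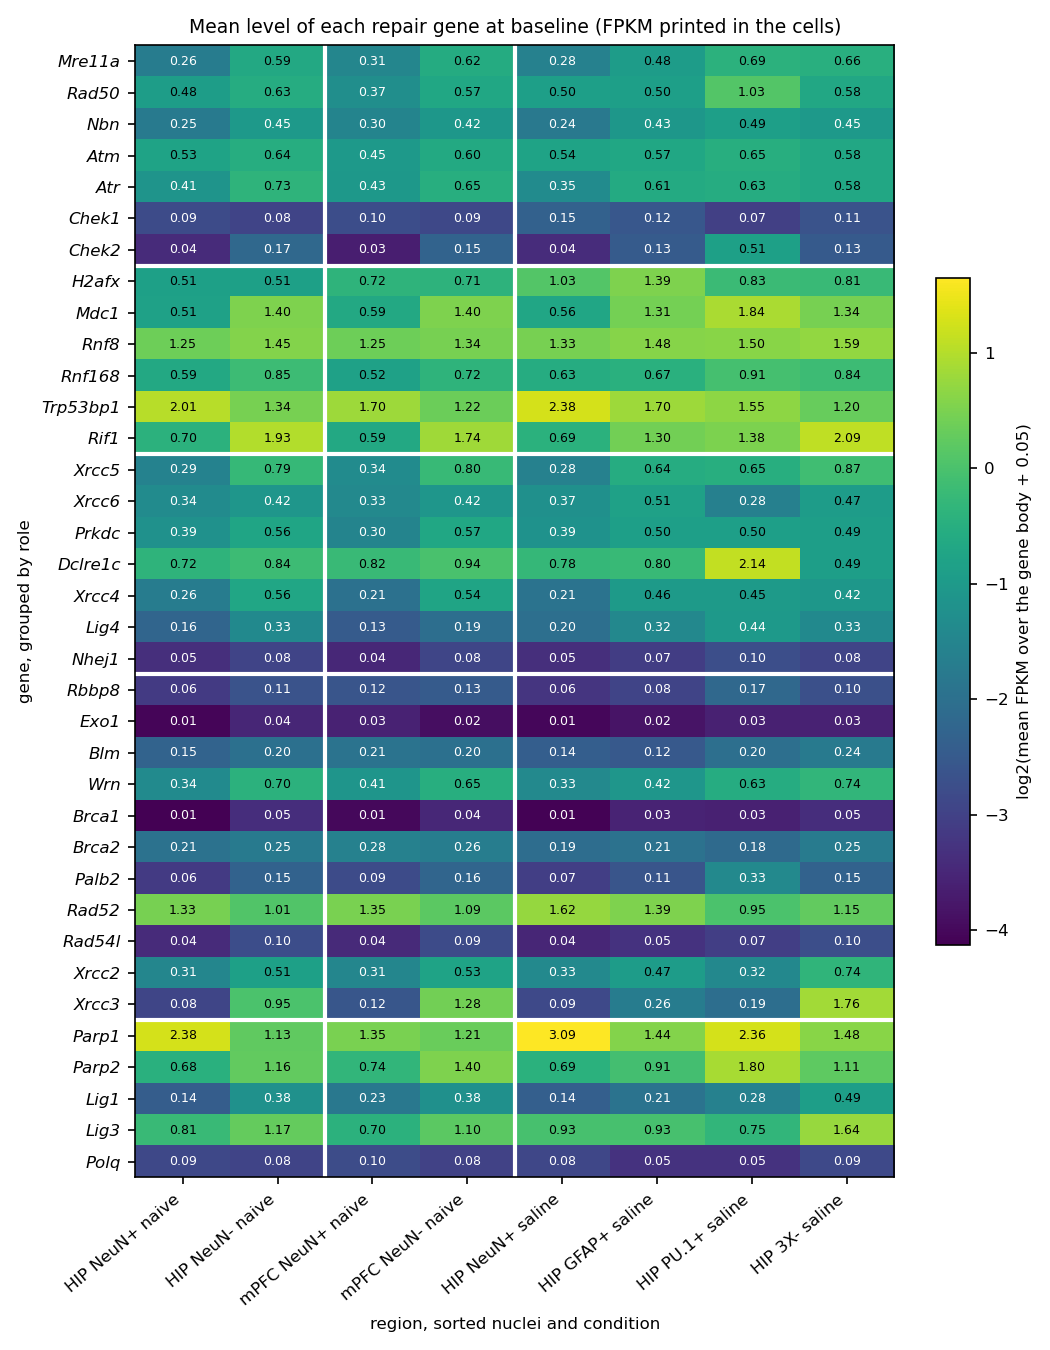
Mean gene-body FPKM of the 36 members (rows, ordered by role) in naive and saline groups (columns), printed in each cell and coloured by level. Parp1 and Trp53bp1 were the highest in HIP NeuN+ nuclei, at 2.38 and 2.01 FPKM. Most resection and recombination genes were below 0.2 in those HIP NeuN+ nuclei.

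In naive animals, about as many repair genes as genes in general differed between neurons and non-neuronal nuclei, in both directions. Of 27 members tested in HIP, 12 were higher in NeuN- (44.4%, against 37.4% of all genes tested) and 7 were lower (25.9%, against 35.7% of all genes); of 26 tested in mPFC, 9 were higher (34.6%, against 37.4%) and 7 lower (26.9%, against 35.0%). The median log2 difference of the members was 0.04 in HIP and 0.12 in mPFC, against 0.05 over all genes in both. Xrcc3, Lig4 and Lig1 in HIP and Xrcc3 in mPFC reached the minimum level only in NeuN-, where they were called higher, and Blm in mPFC only in NeuN+, where it was called higher, so that these counts are a description. Without the minimum, when all 36 were tested, 18 were higher and 9 lower in HIP (35.8% and 32.3% of all genes), and 14 and 10 in mPFC (37.4% and 33.8%). By name, 8 members were higher in NeuN- in both regions (Mre11a, Mdc1, Rif1, Xrcc5, Xrcc4, Wrn, Xrcc3 and Parp2) and 5 were lower in both (Rnf8, Trp53bp1, Dclre1c, Rad52 and Parp1). CPM values below are relative to the total count of the library, whereas log2 differences are from edgeR after TMM scaling. With scaling to the total count instead, the median of all genes moved to 0.53 in HIP and 0.55 in mPFC and the split of the members to 22 higher and 3 lower in HIP and to 18 and 2 in mPFC; Rnf8, Dclre1c, Atm and Xrcc6 in HIP were then called higher instead of lower, and Rnf8, Dclre1c, Parp1, Blm and Brca2 in mPFC were no longer called. In sorted bulk nuclei, fewer expressing cells and less RNA per cell cannot be told apart.

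Among genes of end protection and end joining, Rif1, whose protein limits resection together with 53BP1, measured 33.4, 36.5, 33.7 and 35.7 CPM in the HIP NeuN+ libraries and 94.2, 94.8 and 97.2 CPM in HIP NeuN-. In mPFC it measured 31.6, 27.4 and 28.5 CPM in NeuN+ and 88.6, 85.0 and 84.3 CPM in NeuN-. Rif1 was thus higher in every NeuN- library, by 0.97 ± 0.0549 (SE) on the log2 scale in HIP (edgeR adjusted p = 5.89e-12) and 1.06 ± 0.0701 in mPFC (adjusted p = 1.35e-08). Its partner Trp53bp1 went the other way: HIP NeuN+ libraries gave 154, 165, 156 and 153 CPM and HIP NeuN- libraries 105, 114 and 94.8 CPM. In mPFC, Trp53bp1 gave 136, 129 and 132 CPM in NeuN+ and 97.2, 95.6 and 93.9 CPM in NeuN-. The fractions did not overlap in either region, with log2 differences of -1.07 ± 0.0629 in HIP (edgeR adjusted p = 1.05e-11) and -0.97 ± 0.0541 in mPFC (adjusted p = 2.09e-09). Mdc1, the reader of γH2AX, was higher in NeuN-, with 22.6, 28.8 and 24.9 CPM against 8.67, 9.09, 9.42 and 10.1 CPM in HIP NeuN+, and 28.3, 25.2 and 22.9 CPM against 11.7, 10.4 and 10.0 CPM in mPFC. Its log2 difference was 0.98 ± 0.0990 in HIP (edgeR adjusted p = 3.81e-08) and 0.75 ± 0.110 in mPFC (adjusted p = 4.06e-05), again without overlap.

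Of the end-joining genes called in both regions, Xrcc5 and Xrcc4 were higher outside neurons and Dclre1c was lower (-0.26 in HIP and -0.30 in mPFC). Xrcc5, which encodes the larger Ku subunit, measured 26.1, 25.4, 25.1 and 23.7 CPM in HIP NeuN+ and 71.3, 67.8 and 67.8 CPM in HIP NeuN-. In mPFC, Xrcc5 measured 30.2, 30.6 and 29.0 CPM in NeuN+ and 71.5, 69.0 and 69.0 CPM in NeuN-. No library of one fraction reached the other, and the log2 differences were 0.97 ± 0.0617 (HIP, edgeR adjusted p = 3.29e-11) and 0.72 ± 0.0627 (mPFC, adjusted p = 2.43e-07). Xrcc4, the scaffold of the final ligase, gave 83.5, 84.1, 79.6 and 76.9 CPM in HIP NeuN+ and 186, 170 and 178 CPM in HIP NeuN-. In mPFC, Xrcc4 gave 63.5, 68.9 and 62.7 CPM in NeuN+ and 171, 178 and 163 CPM in NeuN-. Xrcc4 did not overlap between fractions and differed by 0.65 ± 0.0545 in HIP (edgeR adjusted p = 2.36e-09) and 0.89 ± 0.0595 in mPFC (adjusted p = 1.51e-08). Other genes covered part of the Xrcc4 body, and the strand setting of the counting was not given in the sources used here.

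Of the recombination and PARP genes, Xrcc3, which acts in homologous recombination, showed the largest difference of the members called in both regions. In neurons it stayed below 1 CPM in HIP, at 0.834, 0.928, 0.901 and 0.845 CPM in HIP NeuN+ against 10.8, 10.2 and 9.64 CPM in HIP NeuN-. In mPFC, Xrcc3 measured 1.29, 1.41 and 1.05 CPM in NeuN+ and 15.2, 15.2 and 10.7 CPM in NeuN-. The fractions were far apart in both regions, but Xrcc3 reached the minimum level only in NeuN- (0.955 FPKM against 0.0821 in HIP, 1.28 against 0.117 in mPFC). In the fit without a minimum level, the log2 difference was 3.03 ± 0.173 in HIP (8.15-fold, edgeR adjusted p = 3.89e-12) and Xrcc3 was 7.98-fold higher in mPFC (adjusted p = 1.00e-08). The antisense gene Klc1, which covered 43.6% of the Xrcc3 body, differed by -0.02 in HIP and -0.18 in mPFC; the part of shared reads was not tested. Rad52, an annealing factor, was lower in NeuN-, at 19.7, 20.3 and 21.3 CPM against 27.7, 27.8, 25.9 and 25.6 CPM in HIP NeuN+. In mPFC, Rad52 gave 22.1, 21.6 and 21.9 CPM in NeuN- against 27.0, 27.7 and 26.8 CPM in NeuN+. Rad52 fractions did not overlap, with log2 differences of -0.87 ± 0.0738 (HIP, edgeR adjusted p = 2.65e-09) and -0.82 ± 0.0743 (mPFC, adjusted p = 3.71e-07).

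Parp1 differed between the regions. HIP NeuN+ libraries gave 77.8, 73.4, 80.0 and 77.1 CPM of Parp1 and HIP NeuN- libraries 36.5, 38.0 and 35.5 CPM, whereas mPFC NeuN+ libraries gave 46.2, 39.5 and 45.7 CPM and mPFC NeuN- libraries 42.4, 37.6 and 37.1 CPM. The fractions were apart in HIP and overlapped in mPFC on the CPM scale. After TMM scaling, the log2 difference was -1.55 ± 0.0626 in HIP (edgeR adjusted p = 2.83e-14) and -0.67 ± 0.0849 in mPFC (adjusted p = 1.01e-05), and the mPFC difference was -0.17 with total-count scaling (adjusted p = 0.0831). A contrast added after the data were seen compared the NeuN- against NeuN+ difference in HIP with that in mPFC. Of 27 members tested, 8 passed (29.6%), against 24.9% of all genes, and Parp1 had the largest value, -0.89 ± 0.105 (adjusted p = 7.83e-07), followed by Lig1 at 0.81 ± 0.157 (adjusted p = 0.000389), Blm at 0.50 ± 0.128, Wrn at 0.40 ± 0.0797 and Prkdc at -0.38 ± 0.0856. These 5 passed in every alternative and without any 1 library; Atr, Xrcc4 and Xrcc5, at 0.26, -0.25 and 0.25, did not, and without mPFC NeuN- naive replicate 2 only those 5 were called.

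Sorting the non-neuronal nuclei further showed in which population each gene was highest. In all, 29 members were tested between the 4 saline populations, and Chek2 and Palb2 entered this test only through their level in PU.1+ nuclei and Blm only through its level in 3X-. Against NeuN+, 9 members were higher and 10 lower in GFAP+ (31.7% and 32.6% of all genes), 15 higher and 10 lower in PU.1+ (36.9% and 35.4%), and 16 higher and 5 lower in 3X- (33.9% and 31.1%). Between glial populations, 20 members passed between GFAP+ and PU.1+, 9 higher and 11 lower in GFAP+ (68.0% of all genes passed, both directions together), while 3 were higher and 15 lower in GFAP+ than in 3X- (27.8% and 26.9%), and 8 higher and 13 lower in PU.1+ than in 3X- (31.9% and 31.5%). The median log2 difference of the members from NeuN+ was 0.05 in GFAP+, 0.46 in PU.1+ and 0.46 in 3X-, against 0.00, 0.04 and 0.05 over all genes. Scaled to the total count, the median of all genes moved to 0.34, 0.53 and 0.34 and the splits became 18 higher and 3 lower, 21 and 5, and 23 and 4. Without the minimum level, the splits over all 36 were 10 higher and 11 lower in GFAP+ (28.5% and 27.4% of all genes), 18 and 12 in PU.1+ (33.1% and 31.1%) and 21 and 5 in 3X- (30.7% and 26.7%).

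By name, 8 members were called higher in 3X- than in each of the other 3 populations (27.6% of those tested, against 10.9% of all genes): Rif1, Xrcc5, Blm, Wrn, Xrcc2, Xrcc3, Lig1 and Lig3. In the same way, 6 were highest in PU.1+ (Rad50, Chek2, Mdc1, Dclre1c, Palb2 and Parp2; 20.7%, against 20.7% of all genes), 3 in NeuN+ (Trp53bp1, Rad52 and Parp1; 10.3%, against 19.9%) and none in GFAP+ (10.5% of all genes). Blm, Chek2 and Palb2 were thus highest in the population through which they had entered, which the minimum level favours. The same pairwise calls were made with total-count scaling for all 17 genes.

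In 3X- nuclei, Xrcc3 measured 19.5, 22.3, 17.0 and 16.5 CPM, against 0.966, 0.418, 0.799 and 1.6 CPM in NeuN+, 3.71, 3.34, 1.86 and 2.18 CPM in GFAP+ and 1.21, 2.4, 2.44 and 2.26 CPM in PU.1+. No other library came near the 3X- range, and the difference from NeuN+ was 3.96 ± 0.235 on the log2 scale (edgeR adjusted p = 6.21e-14, and 9.96e-16 without the minimum level, which Xrcc3 did not reach in NeuN+ or PU.1+). Klc1, the antisense neighbour of Xrcc3, differed by 0.36 in the same contrast. Lig1, the replicative DNA ligase, measured 14.7, 18.1, 17.1 and 17.4 CPM in 3X- and 4.59, 5.43, 4.59 and 4.9 CPM in NeuN+. GFAP+ libraries gave 8.34, 7.04, 7.21 and 6.34 CPM of Lig1 and PU.1+ libraries 8.72, 12.5, 9.38 and 8.27 CPM. Lig1 was therefore separated from all other populations in 3X-, by 1.50 ± 0.135 on the log2 scale from NeuN+ (edgeR adjusted p = 2.74e-10, and 2.17e-11 without the minimum level, which Lig1 did not reach in NeuN+). Rif1 gave 98.4, 113, 101 and 101 CPM in 3X-, 69.9, 66.4, 66.9 and 71.0 CPM in PU.1+, 66.4, 63.9, 60.7 and 66.2 CPM in GFAP+ and 31.1, 36.1, 33.2 and 37.0 CPM in NeuN+. The 3X- libraries lay above and the NeuN+ libraries below the adjoining GFAP+ and PU.1+ ranges of Rif1.

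In PU.1+ microglia, Dclre1c, which encodes the end-trimming nuclease Artemis, reached 95.8, 82.4, 81.7 and 81.8 CPM, against 31.0, 32.8, 29.6 and 31.0 CPM in NeuN+, 30.3, 34.6, 33.2 and 30.5 CPM in GFAP+ and 18.3, 19.2, 21.9 and 18.8 CPM in 3X-. The PU.1+ libraries lay far above all others, with a log2 difference of 0.97 ± 0.0767 from NeuN+ (edgeR adjusted p = 1.66e-11) and 1.92 ± 0.0816 from 3X-. Other genes covered 20.8% of the Dclre1c body. Chek2, a checkpoint kinase activated by ATM, measured 18.4, 17.9, 15.5 and 18.0 CPM in PU.1+, 1.21, 1.95, 1.6 and 1.38 CPM in NeuN+, 4.63, 5.19, 3.72 and 4.26 CPM in GFAP+ and 3.61, 3.11, 4.77 and 5.84 CPM in 3X-. The PU.1+ range of Chek2 lay above all others. In the fit without a minimum level, which did not depend on that range, the log2 difference of Chek2 from NeuN+ was 3.04 ± 0.188 (edgeR adjusted p = 3.08e-15). Chek2 was not distinguished between GFAP+ and 3X- (adjusted p = 0.828). Palb2, the partner of BRCA2, measured 9.12, 8.54, 8.29 and 7.77 CPM in PU.1+ and 2.05, 1.11, 1.5 and 2.56 CPM in NeuN+, without overlap, and differed by 1.73 ± 0.206 in the same fit (edgeR adjusted p = 1.09e-08).

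The 3 genes highest in NeuN+ included both of the most expressed members. Trp53bp1 measured 177, 188, 192 and 186 CPM in NeuN+, 138, 136, 127 and 131 CPM in GFAP+, 115, 126, 125 and 120 CPM in PU.1+ and 92.6, 96.5, 91.6 and 93.4 CPM in 3X-. No 2 populations overlapped and all 6 pairs were called, in this order. Parp1 measured 98.4, 103, 103 and 95.9 CPM in NeuN+, 74.1, 78.4, 71.2 and 81.9 CPM in PU.1+, 49.5, 43.7, 47.1 and 51.1 CPM in 3X- and 44.1, 42.7, 48.2 and 51.5 CPM in GFAP+. GFAP+ and 3X- were not distinguished for Parp1 (edgeR adjusted p = 0.217), and every other pair was. The plot of 6 genes by population shows these separations library by library.

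**Figure D2:**
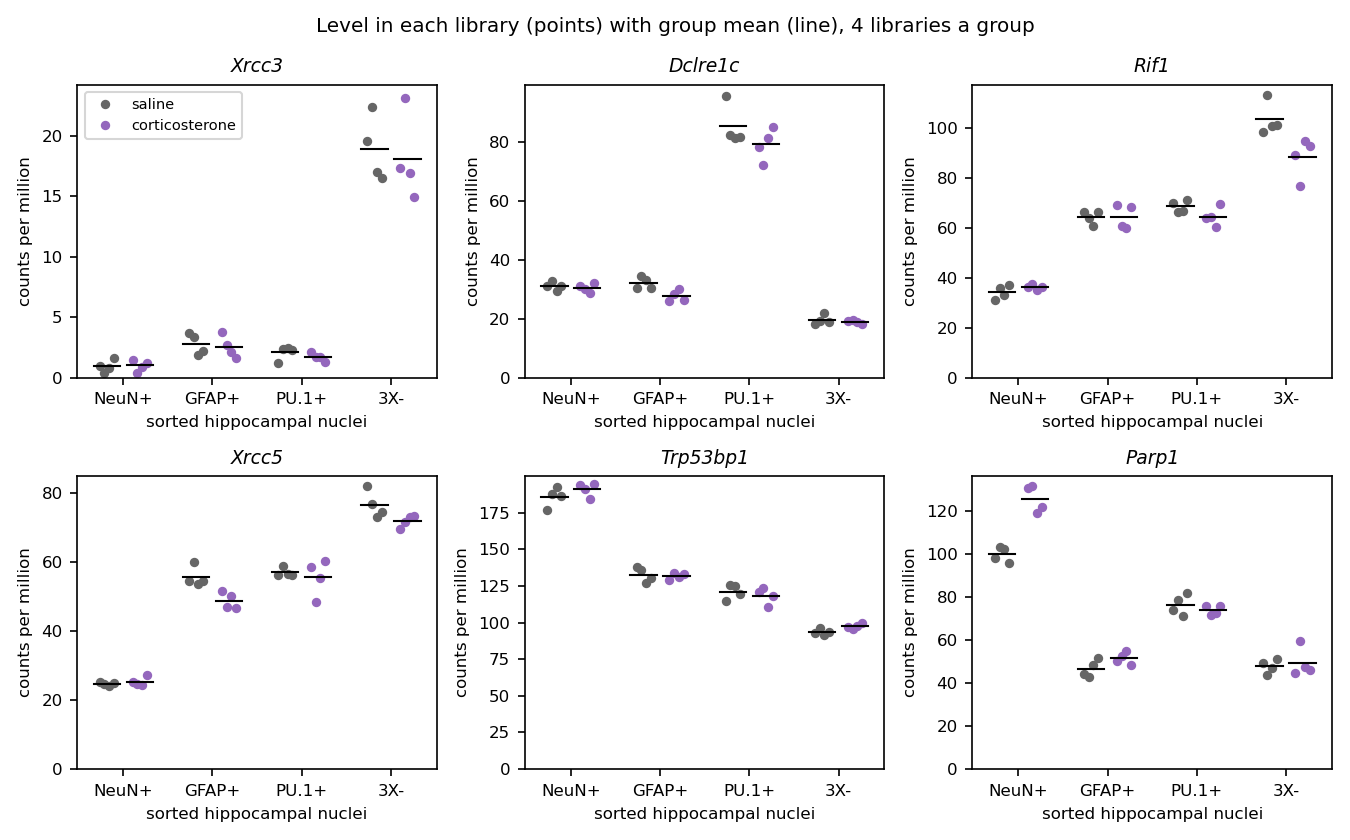
CPM of Xrcc3, Dclre1c, Rif1, Xrcc5, Trp53bp1 and Parp1 in each HIP library of the corticosterone experiment, by sorted population; points are libraries (saline grey, corticosterone purple) and lines are means of 4 libraries. Xrcc3 reached 16.5 to 22.3 CPM only in 3X- among the saline libraries, Dclre1c 81.7 to 95.8 CPM in PU.1+, and Parp1 rose in NeuN+ after corticosterone.

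After CFC, some repair genes fell in mPFC neurons and none rose. Of 26 members tested in mPFC NeuN+, 6 fell at CFC10 (23.1%), when 14.5% of all genes were called and 6.26% were lower. At CFC30, 9 fell (34.6%), when 24.7% of all genes were called and 11.6% were lower. The 6 genes that fell at CFC10, Atm, Atr, Xrcc5, Blm, Wrn and Brca2, also fell at CFC30, where Rad50, Xrcc4 and Rad52 joined them; both times were compared with the same 3 naive libraries. Brca2, Blm and Xrcc4 reached the minimum level only in naive nuclei, where they were high (0.285, 0.212 and 0.206 FPKM), so their falls count toward these shares by the way they entered. Without the minimum, when all 36 members were tested, 5 fell at CFC10 (13.9%, against 4.09% of all genes) and 8 at CFC30 (22.2%, against 7.86%); Exo1 was then called at CFC30 and Rad50 and Rad52 were not. With the minimum set on the mean of the 3 groups, an alternative chosen after the data were seen, 5 and 8 of 23 tested members fell (6.67% and 12.2% of all genes). The median log2 change of the members was -0.09 at CFC10 and -0.16 at CFC30, against 0.01 and 0.00 over all genes, and 88.5% of members had a negative value at CFC30 against 50.8% of all genes. Over all 36 without the minimum, the medians were -0.09 and -0.13, against 0.00 and -0.02 over all genes. By role, with the minimum applied, 4 of 5 tested recombination genes fell at CFC30 (Blm, Wrn, Brca2 and Rad52), out of 11 members of that role. Of the break sensors and kinases 3 of 5 fell (Rad50, Atm and Atr), and of the end-joining genes 2 of 6 (Xrcc5 and Xrcc4). In the γH2AX platform 0 of 6 fell, and of the PARP and ligase genes 0 of 4. Of the 10 tested genes in the last 2 roles, Rnf8 had an unadjusted p under 0.05 in edgeR, and DESeq2 also called 0. The counts by role include Blm, Brca2 and Xrcc4, which entered only through naive nuclei. Without the minimum, the resection and recombination genes called lower were Blm, Wrn, Brca2 and Exo1. Those of other roles were Atm, Atr, Xrcc5 and Xrcc4. Differences between roles were not tested. Total-count scaling moved the median of all genes to 0.01 at CFC10 and -0.02 at CFC30.

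**Figure D3:**
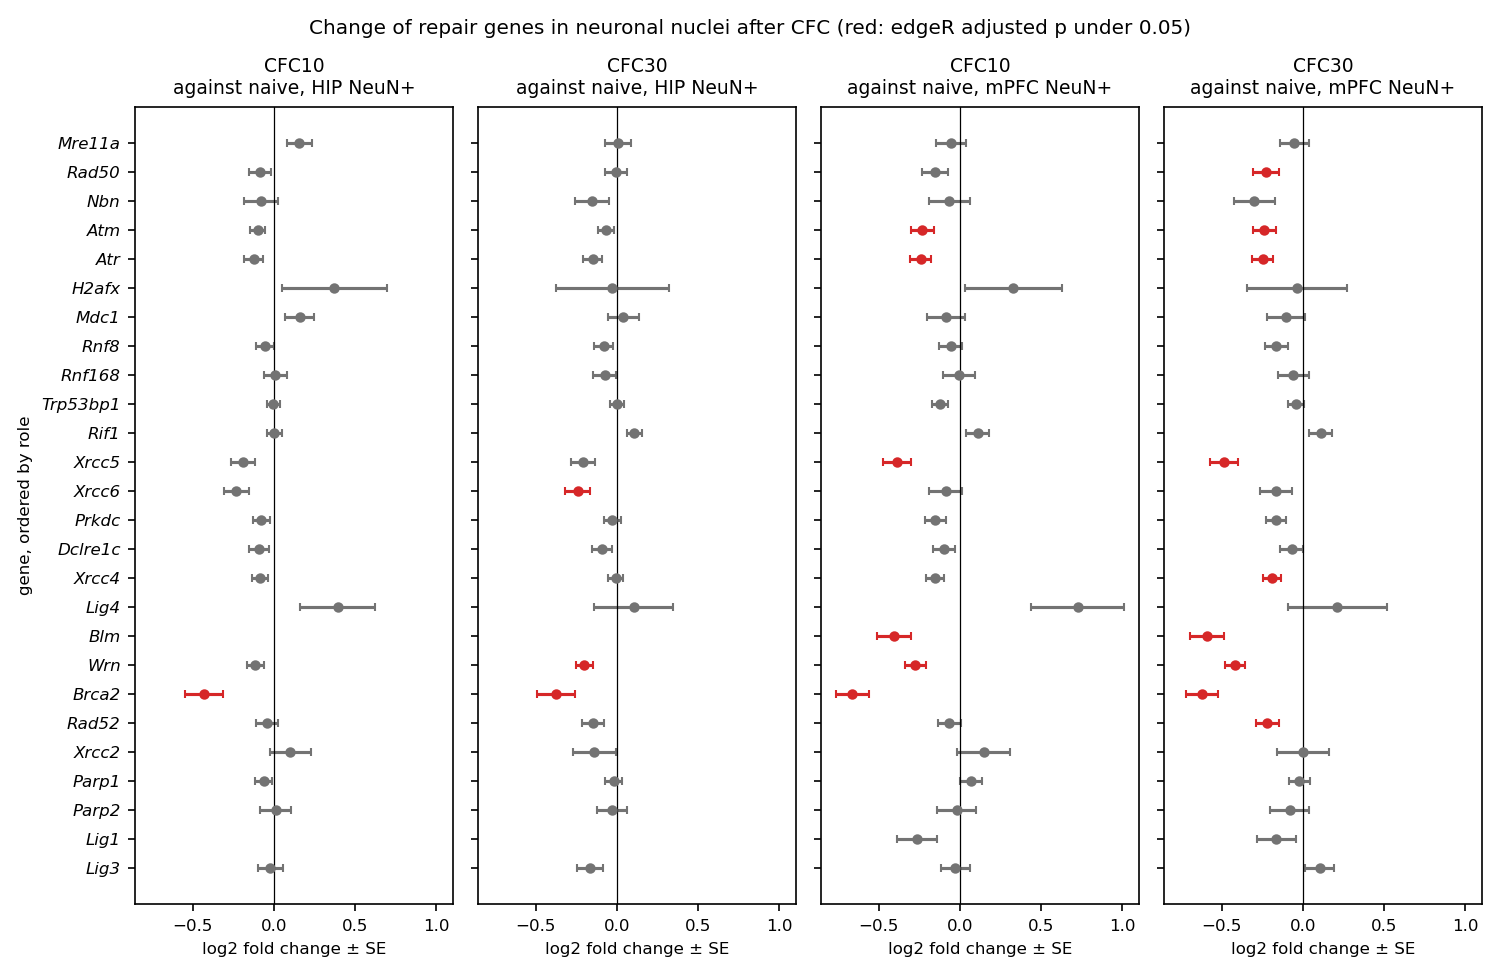
Log2 fold change against naive (points) with SE (bars) for each tested member in NeuN+ nuclei, in 4 panels by region and time; red points passed an edgeR adjusted p under 0.05. All red points lie below 0, with 6 and 9 in mPFC at CFC10 and CFC30 and 1 and 3 in HIP.

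The largest fall was that of Brca2 (chr5:150522630-150570329, GRCm38), a gene of homologous recombination whose promoter is shown above. Other gene models, 1 on the same strand and 3 antisense, covered 13.5% of the Brca2 body, and the part of shared reads was not tested. The mPFC NeuN+ libraries measured 12.5, 14.4 and 13.8 CPM in naive, 8.93, 8.69 and 8.12 CPM at CFC10 and 7.98, 8.91 and 9.23 CPM at CFC30. Every CFC library was below every naive library, and the log2 change of Brca2 was -0.66 ± 0.102 at CFC10 and -0.62 ± 0.0998 at CFC30. In the fit without a minimum level, its changes were -0.65 ± 0.103 (edgeR adjusted p = 0.000139) and -0.60 ± 0.101 (adjusted p = 0.000110). The RecQ helicases Blm and Wrn, which unwind recombination intermediates, fell with it. Blm (chr7:80454733-80535119) measured 16.9, 17.3 and 16.9 CPM in naive, 11.6, 13.8 and 12.9 CPM at CFC10 and 9.98, 10.1 and 13.6 CPM at CFC30. Wrn (chr8:33234384-33385527) measured 64.5, 60.8 and 62.4 CPM in naive, 48.6, 56.4 and 50.0 CPM at CFC10 and 46.0, 43.8 and 48.9 CPM at CFC30. Neither helicase overlapped its naive libraries. Without the minimum level, Blm changed by -0.39 ± 0.105 at CFC10 (edgeR adjusted p = 0.0161) and -0.57 ± 0.106 at CFC30 (adjusted p = 0.000348). Wrn, which reached the minimum in every group, changed by -0.27 ± 0.0622 (adjusted p = 0.00332) and -0.42 ± 0.0624 (adjusted p = 2.12e-05). Rad52 was lower only at CFC30, at 23.0, 22.7 and 23.3 CPM against 27.0, 27.7 and 26.8 CPM in naive and 24.1, 26.9 and 26.8 CPM at CFC10 (-0.22 ± 0.0709, edgeR adjusted p = 0.0239).

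The end-joining gene Xrcc5 (chr1:72307421-72394952) measured 30.2, 30.6 and 29.0 CPM in naive mPFC NeuN+, 22.2, 23.4 and 23.1 CPM at CFC10 and 18.9, 19.5 and 25.2 CPM at CFC30. All 6 CFC libraries lay below the naive ones, with changes of -0.39 ± 0.0851 (edgeR adjusted p = 0.00255) and -0.49 ± 0.0850 (adjusted p = 0.000136). Its Ku partner Xrcc6 was not called in mPFC (-0.09 and -0.17). Xrcc4 measured 63.5, 68.9 and 62.7 CPM in naive, 57.5, 60.7 and 57.5 CPM at CFC10 and 54.1, 57.5 and 56.5 CPM at CFC30. It was called at CFC30 (-0.19 ± 0.0555, edgeR adjusted p = 0.0121, and 0.0353 without the minimum level) and was -0.15 at CFC10 (adjusted p = 0.0723).

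The 2 apical kinases fell by smaller amounts. Atr (chr9:95857597-95951781) measured 41.9, 39.4 and 40.4 CPM in naive, 32.6, 35.3 and 35.1 CPM at CFC10 and 32.1, 34.5 and 34.4 CPM at CFC30. Other gene models covered 11.3% of the Atr body, and the part of shared reads was not tested. Atm (chr9:53439149-53536740) measured 41.3, 42.0 and 48.3 CPM in naive, 36.6, 36.7 and 39.0 CPM at CFC10 and 33.9, 37.3 and 39.0 CPM at CFC30. Neither gene overlapped its naive libraries at either time. Atr changed by -0.24 ± 0.0642 (edgeR adjusted p = 0.0118) and -0.25 ± 0.0636 (adjusted p = 0.00527), and Atm by -0.23 ± 0.0714 (adjusted p = 0.0297) and -0.24 ± 0.0707 (adjusted p = 0.0146). Rad50, of the end-binding complex, measured 20.3, 20.6 and 22.5 CPM in naive, 17.9, 19.3 and 19.9 CPM at CFC10 and 17.8, 18.5 and 17.1 CPM at CFC30 and was called at CFC30 (-0.23 ± 0.0802, edgeR adjusted p = 0.0405).

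Brca2, Xrcc5, Blm and Wrn at both times and Atr at CFC30 passed without any 1 library and in every alternative that tested them; Blm fell below the minimum when it was set on the mean of the groups. The other calls did not hold throughout: Atm was lost at CFC10 without naive replicate 3 (edgeR adjusted p = 0.193) or CFC10 replicate 1 or 2 and at CFC30 without naive replicate 3 (adjusted p = 0.125) or CFC30 replicate 1, Atr was lost at CFC10 without naive replicate 1 or CFC10 replicate 1, Xrcc4 without CFC30 replicate 1 (adjusted p = 0.0595), Rad50 without any 1 of the 6 libraries and Rad52 without any but naive replicate 3. Without CFC30 replicate 1, 5 members were called at CFC30. DESeq2 called 5 members at CFC10, not Atm, and 7 at CFC30, not Rad50 or Rad52. The members that fell had gene bodies of 20.1 to 316 kb (median 87.5 kb), against a median of 32.3 kb for the 17 tested members that did not. Over all genes, the share called lower at CFC30 was 6.27% below 20 kb, 14.6% from 20 to 50 kb, 16.1% from 50 to 100 kb and 23.0% from 100 kb, and among members it was 0 of 5, 2 of 10, 5 of 8 and 2 of 3 in the same bins, which were chosen after the data were seen. Library content differed as well. The summed level of 5 oligodendrocyte markers in mPFC NeuN+ was 64.2 to 85.7 CPM in naive, 120 to 155 CPM at CFC10 and 118 to 183 CPM at CFC30, with at most 1 marker at 0, and that of 5 excitatory markers was 1257 to 1341 CPM in naive, 1345 to 1463 CPM at CFC10 and 1356 to 1397 CPM at CFC30. Of the 9 genes that fell, Xrcc5, Xrcc4 and Wrn were called higher in NeuN- than in NeuN+ in naive mPFC, Brca2, Blm and Rad52 were called lower, and Rad50, Atm and Atr were not called. The part of gene length and of library content in these falls was not tested.

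In HIP neurons, fewer members passed, again all downward. Of 24 members tested, 1 fell at CFC10 (4.17%), when 4.86% of all genes were called and 2.14% were lower, and 3 fell at CFC30 (12.5%), when 8.56% were called and 3.89% were lower. The CFC10 share is that of 1 gene and lay close to the background. Brca2 was the gene called at both times, but it reached the minimum level only in naive nuclei (0.209 FPKM, against 0.159 at CFC10 and 0.162 at CFC30) and was not called without that minimum (edgeR adjusted p = 0.0553 and 0.0731), when 0 members fell at CFC10 and 1, Blm, at CFC30. Its HIP NeuN+ libraries measured 10.3, 9.78, 8.27 and 11.6 CPM in naive, 7.77, 7.51, 7.36 and 7.66 CPM at CFC10 and 6.62, 6.32, 8.88 and 9.02 CPM at CFC30. The CFC10 libraries were all below naive, whereas the CFC30 libraries overlapped them. The log2 change was -0.43 ± 0.117 at CFC10 (edgeR adjusted p = 0.0393) and -0.38 ± 0.117 at CFC30 (adjusted p = 0.0491), both against the same 4 naive libraries. Wrn measured 51.3, 53.3, 52.2 and 47.5 CPM in naive, 48.6, 50.4, 45.2 and 49.5 CPM at CFC10 and 44.5, 43.4, 47.9 and 43.7 CPM at CFC30, where it was called with overlap (-0.20 ± 0.0528, edgeR adjusted p = 0.0207). Xrcc6, the smaller Ku subunit, measured 17.7, 17.4, 18.7 and 17.7 CPM in naive and 15.2, 12.9, 15.6 and 16.9 CPM at CFC30 without overlap (-0.24 ± 0.0756, edgeR adjusted p = 0.0499). Desi1, which covered 79.1% of the Xrcc6 body, changed by 0.18.

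Leaving out single libraries ended most of the HIP calls. Brca2 at CFC10 was called without naive replicate 3 and in none of the other 6 fits that left out 1 library, with adjusted p from 0.0531 to 0.103 in edgeR; the fit without naive replicate 4 could not test it because it fell below the minimum level. At CFC30, Brca2 was lost without naive replicate 1 or 2 or CFC30 replicate 1 or 2 (adjusted p up to 0.155), Wrn without naive replicate 1, 2 or 3 or CFC30 replicate 2 (up to 0.0662), and Xrcc6 without any but CFC30 replicate 4 (up to 0.167). Apart from left-out libraries, Xrcc6 at CFC30 kept its call in 1 of 7 alternatives, Brca2 in 2 of 6 and Wrn in 6 of 7. Xrcc6 was lost with DESeq2, its size factors, total-count scaling and no FPKM filter. It was also lost with the minimum on the mean and with only the 2 groups compared. The plot of 6 members by library sets the 2 regions side by side.

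**Figure D4:**
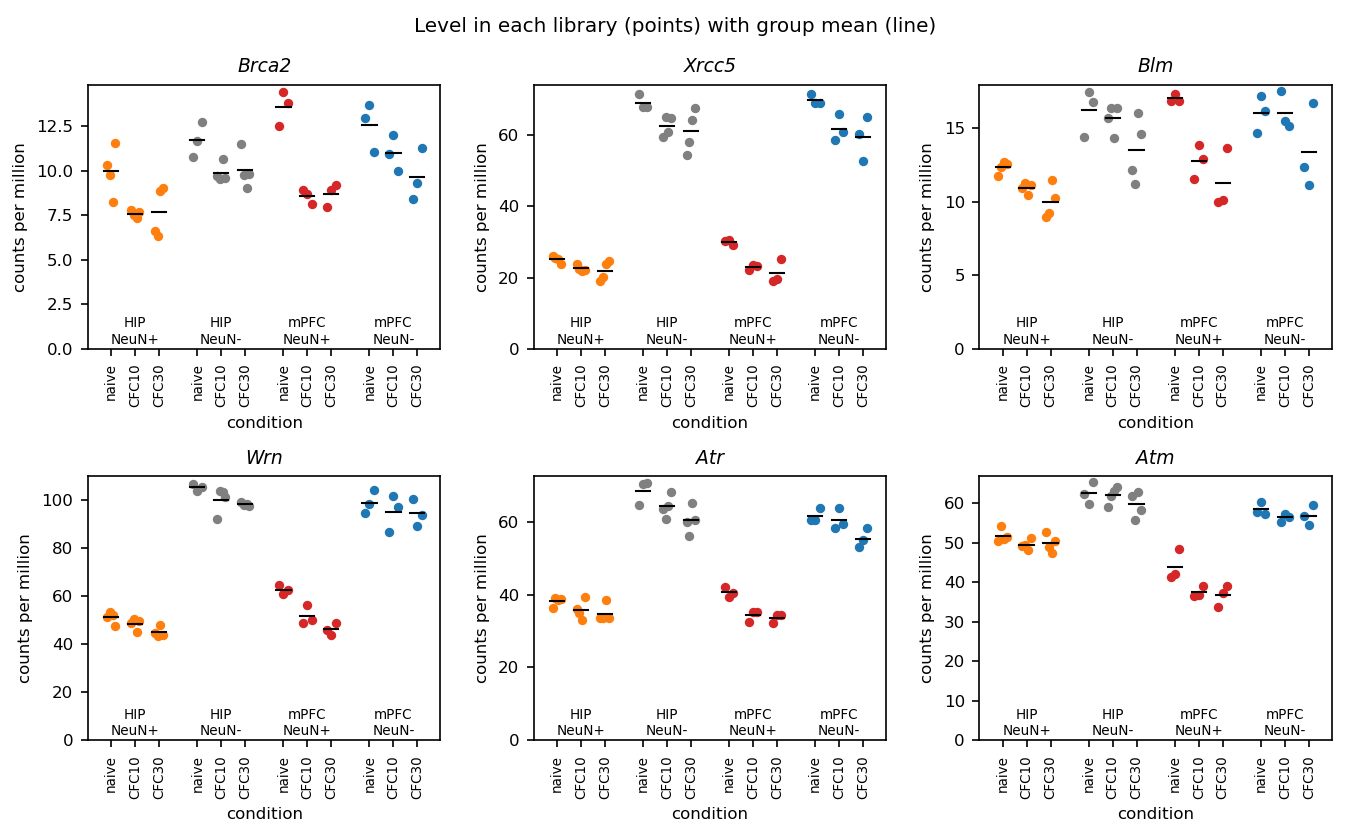
CPM of Brca2, Xrcc5, Blm, Wrn, Atr and Atm in each library (points) of naive, CFC10 and CFC30 mice, by region and nuclear fraction, with group means as lines. In mPFC NeuN+ all CFC libraries lie below the naive ones for all 6 genes, and in HIP NeuN+ Brca2 overlaps naive at CFC30.

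In non-neuronal nuclei, 1 member passed at 1 time in 1 region. In HIP NeuN- nuclei edgeR called 0 of 28 members at CFC10 and 0 at CFC30, with 3 and 5 at an unadjusted p under 0.05, and DESeq2 also called 0; 0.345% and 2.38% of all genes were called. In mPFC NeuN- nuclei 1 of 27 members was called at CFC10 (3.70%), when 1.71% of all genes were called and 0.74% were higher, and 0 at CFC30, when 5.84% of all genes were called, with 5 members at an unadjusted p under 0.05 and 0 by DESeq2. The gene was Lig4, the end-joining ligase, which measured 1.48, 1.68 and 1.89 CPM in naive and 4.47, 2.80 and 3.85 CPM at CFC10. In CFC10 replicate 1, 28138 genes had a count, against 22504 to 23308 in the other mPFC NeuN- libraries. The part of this difference in the Lig4 call was not tested. The groups did not overlap (1.14 ± 0.236, edgeR adjusted p = 0.0269), but the call was lost when any 1 library other than CFC10 replicate 2 was left out (adjusted p 0.0555 to 0.146), and DESeq2 gave Lig4 no adjusted p. Lig4 was below the minimum level in naive nuclei (0.195 FPKM), and without that minimum its adjusted p was 0.0517.

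Whether the response differed between fractions was tested directly, as the CFC change in NeuN- minus that in NeuN+. In mPFC at CFC30, 1 of 28 members passed (3.57%, against 4.18% of all genes): Wrn, which fell in neurons and measured 94.4, 98.3 and 103.9 CPM in naive and 100.3, 89.1 and 93.7 CPM at CFC30 in NeuN- nuclei, where the groups overlapped. The difference of the 2 changes was 0.37 ± 0.0984 (edgeR adjusted p = 0.0292), and it was lost without 7 of the 12 libraries, namely NeuN- naive replicate 1 or 2, NeuN- CFC30 replicate 1, NeuN+ naive replicate 1 or 3 and NeuN+ CFC30 replicate 1 or 2 (adjusted p 0.0590 to 0.101). In mPFC at CFC10, 0 members passed and 1.88% of all genes did; 5 members had an unadjusted p under 0.05, and DESeq2 called 0. In HIP, 0 members passed at CFC10 or CFC30, against 0.0312% and 0.293% of all genes, with 0 at an unadjusted p under 0.05 at either time and 0 by DESeq2. For the other genes that fell in mPFC neurons, a difference from NeuN- nuclei was thus not shown.

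After corticosterone, 1 member passed the test, in 1 population. Parp1 rose in hippocampal NeuN+ nuclei, the population in which it was already highest. Of 22 members tested in NeuN+, Parp1 alone was called (4.55%), when 2.06% of all genes were called and 1.26% were higher. Saline libraries measured 98.4, 103, 103 and 95.9 CPM and corticosterone libraries 131, 132, 119 and 122 CPM, means of 100.1 ± 3.55 and 126 ± 6.34 CPM (SD, n = 4). All 4 corticosterone libraries were above all 4 saline libraries, and the rise was 1.27-fold (log2 0.35 ± 0.0478, edgeR adjusted p = 8.71e-07). It passed in all alternatives and without any 1 library, with a largest adjusted p of 4.58e-05. Excitatory markers summed to 1435 to 1538 CPM in these saline libraries and 1417 to 1467 CPM in the corticosterone libraries, and oligodendrocyte markers to 113 to 122 and 111 to 119 CPM.

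In the glial populations, Parp1 measured 44.1, 42.7, 48.2 and 51.5 CPM after saline and 50.2, 52.7, 55.1 and 48.3 CPM after corticosterone in GFAP+, with overlap (log2 0.19 ± 0.0706, edgeR adjusted p = 0.256). PU.1+ libraries gave 74.1, 78.4, 71.2 and 81.9 CPM of Parp1 after saline and 76.0, 71.6, 72.4 and 75.8 CPM after corticosterone (-0.01 ± 0.0578), and 3X- libraries 49.5, 43.7, 47.1 and 51.1 CPM and 44.8, 59.5, 47.5 and 46.1 CPM (0.09 ± 0.0867). The groups overlapped in all 3 glial populations. edgeR called 0 of 26 members in GFAP+, 0 of 26 in PU.1+ and 0 of 27 in 3X-, with 4, 0 and 2 at an unadjusted p under 0.05 and 0 by DESeq2, when 2.93%, 7.84% and 7.48% of all genes were called. The Parp1 response of PU.1+ differed from that of NeuN+ by -0.39 ± 0.0970 on the log2 scale (edgeR adjusted p = 0.0220), 1 of 29 members (3.45%) against 1.55% of all genes; this call was lost without 8 of the 16 libraries, namely PU.1+ saline replicate 2 or 4, PU.1+ corticosterone replicate 2 or 3, NeuN+ saline replicate 1 or 4 and NeuN+ corticosterone replicate 1 or 2 (adjusted p 0.0503 to 0.0891). For GFAP+ and 3X- the differences in Parp1 response from NeuN+ were -0.17 ± 0.100 and -0.30 ± 0.100 and did not pass, nor did any other member (0.507% and 1.95% of all genes called, with 4 and 3 members at an unadjusted p under 0.05 and 0 by DESeq2). Rad52 entered the GFAP+ difference without GFAP+ saline replicate 3 or GFAP+ corticosterone replicate 3 (0.47, adjusted p = 0.0387 in the latter), and Parp1 the 3X- difference without 3X- corticosterone replicate 2 (-0.37, adjusted p = 0.0241). That 3X- library had the most genes with a count in its group (29809). After CFC, Parp1 in HIP NeuN+ changed by -0.06 ± 0.0522 at CFC10 and -0.02 ± 0.0523 at CFC30, neither called.

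A wider list of 90 genes of the DNA damage response, apart from the 36, was read in the same fits. It too was chosen with earlier results of these data known. In mPFC NeuN+, 3 of 65 tested rose (4.62%, against 8.19% of all genes) and 5 fell (7.69%, against 6.26%) at CFC10. At CFC30, 8 rose (12.3%, against 13.1%) and 15 fell (23.1%, against 11.6%). DESeq2 called 3 of these 65 at CFC10 and 10 at CFC30, both directions together. Of the 12987 genes in the same fits, it called 1319 and 2325. With DESeq2, the called share of the wider list was thus not above that of all genes. Cdkn1a, the cell-cycle inhibitor downstream of p53, rose by 1.74 on the log2 scale at CFC10 (edgeR adjusted p = 0.000180) and 1.53 at CFC30, while Babam2, a subunit of a BRCA1-associated complex, fell by 0.23 and 0.29. The DNA topoisomerase gene Top3a and the helicase gene Recql5 fell by 0.65 and 0.41 at CFC30. In HIP NeuN+, 0 of 65 rose (2.72% of all genes did) and 5 fell (7.69%, against 2.14%) at CFC10, among them Shld1, Fancl, Mdm4 and Babam2, by 0.17 to 0.30. At CFC30, 1 rose (1.54%, against 4.67%) and 8 fell (12.3%, against 3.89%), where the ubiquitin ligase gene Rad18 fell by 0.32 and the helicase gene Recql4 rose by 0.85. In HIP NeuN- nuclei, 0 of 70 passed at CFC10 and 1 at CFC30 (Rad18, -0.43), when 0.345% and 2.38% of all genes were called. At these times 10 and 11 had an unadjusted p under 0.05 in edgeR, and DESeq2 called 1 and 2. In mPFC NeuN- nuclei, 0 of 70 passed at either time, when 1.71% and 5.84% of all genes were called. There, 4 and 8 had an unadjusted p under 0.05 in edgeR at CFC10 and CFC30, and DESeq2 called 0. Corticosterone changed 0 of 64 in NeuN+ (7 at an unadjusted p under 0.05 in edgeR, 0 by DESeq2), when 2.06% of all genes were called. It changed 2 of 73 in GFAP+, 3 of 69 in PU.1+ and 3 of 72 in 3X-. These shares, 2.74%, 4.35% and 4.17% in the glial populations, were below the 2.93%, 7.84% and 7.48% of all genes called. Cdkn1a rose in all 3 glial populations, by 4.28 ± 0.284 in 3X- (edgeR adjusted p = 1.01e-13), 1.88 in GFAP+ and 0.89 in PU.1+; Ccng1, another p53 target, rose by 1.05 in GFAP+ and 1.09 in 3X-, and the ubiquitin ligase gene Rnf169 by 1.51 in PU.1+. Cdkn1a in mPFC NeuN+, GFAP+ and 3X-, Top3a and Recql4 at CFC30 and Rad18 in HIP NeuN- reached the minimum level in only 1 of the 2 groups compared; without the minimum, Rad18 lost its call (edgeR adjusted p = 0.0787) and the others kept theirs, with 4.22 for Cdkn1a in 3X- (adjusted p = 4.94e-08). Library content moved with corticosterone in 2 of these populations. In PU.1+, 5 astrocyte markers summed to 255 to 309 CPM after saline and 424 to 590 CPM after corticosterone, and 5 microglial markers to 4395 to 4775 CPM and 4044 to 4283 CPM; in 3X-, 5 oligodendrocyte markers summed to 8807 to 9279 CPM and 9643 to 10633 CPM, in each case with no marker at 0. Their part in these changes was not tested.

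Finally, the repair genes were compared with the mark that their products help to place. The deposited γH2AX lists, which join peaks of naive and CFC30 samples after merging replicates, held 282 HIP and 260 mPFC peaks, annotated to 308 and 283 genes. None of the 36 members was annotated to a peak or overlapped one by 1 bp or more, in either region. Of genes above the expression minimum, 3.48% (533 of 15314) overlapped a peak in HIP and 3.34% (522 of 15650) in mPFC, so that a count of 0 among 36 lay near the background. The lists hold no counts and no values per replicate, and weaker γH2AX signal at these genes was not analysed here.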

How the data were processed

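RNA was measured in sorted, paraformaldehyde-fixed nuclei with SMARTer Stranded Total RNA-Seq Pico kits, of different versions for HIP and mPFC. According to the study's methods, the authors cut the bases added by the template-switching oligo with Trimmomatic, mapped the reads to GRCm38 (mm10) using HISAT2, discarded duplicates using Picard, and obtained counts per gene, introns included, from featureCounts; the deposited tables hold raw counts per gene, not normalized. Their γH2AX peaks, per the labels and the study's methods, were aligned with Bowtie2 and called with MACS2 in broad mode on merged replicates; the deposited lists were used for positions only. Tool versions and the strand setting are not given in the sources used here. All columns of per-sample values were used; HIP NeuN- naive replicates 3 and 4 were identical and counted once.

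Here, gene bodies came from GENCODE vM21 (GRCm38). The 67 rows without a gene model (at most 0.0266% of counts) were left out of library sizes and tests. Genes reaching 0.2 FPKM in at least 1 group entered edgeR 4.0.16 (R 4.3.3): TMM scaling, a quasi-likelihood F test without a replicate term, and Benjamini-Hochberg adjustment over all genes tested; calls needed an adjusted p under 0.05. A member called in a CFC or corticosterone comparison is described library by library, as are the 8 with the largest mean difference among those called the same way in both regions; of the wider list, up to 4 called genes a comparison are named. All genes named for 1 sorted population were chosen after their values were seen. Alternatives were DESeq2 1.42.0, its size factors, no FPKM filter (at least 10 counts), a replicate block, only the 2 groups compared, both identical libraries kept, 1 library left out and, added after seeing the data, total-count scaling and an FPKM minimum on the mean of all groups of a fit. Where a gene reached 0.2 FPKM in only 1 of the groups compared, the value without the FPKM filter is given. The fits were tested on simulated counts with changes larger than the falls of members after CFC. That test therefore does not show how well such small falls are found. Members and lists were chosen with earlier results of these data known.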

Additional observations from a re-analysis of the deposited data

Results flagged for a closer look

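A library was singled out where its gap to the nearest library of its group of 4 took up most of the range of the group; this held in 17 of the 169 groups tested, and chance alone gives about 1 in 20. Among the saline libraries, PU.1+ replicate 2 stood high for Rad50 (67.1 CPM) and for Xrcc5 (58.7 CPM), GFAP+ replicate 2 for Atm (60.0 CPM) and for Xrcc5 (59.9 CPM), and PU.1+ replicate 1 for Xrcc6 (15.8 CPM). 3X- replicate 1 was low for Rad50 (30.1 CPM) and Brca2 (8.73 CPM), and 3X- replicate 3 for Xrcc6 (21.7 CPM). In NeuN+ saline nuclei, replicate 4 was high for Atm (59.1 CPM) and replicate 2 for Wrn (56.4 CPM). After corticosterone, NeuN+ replicate 2 was low for Atr (29.7 CPM), and GFAP+ replicate 1 had the highest sum over all 36 members (1097 CPM, against 1034 to 1043 CPM in the other 3). In HIP NeuN+ nuclei, Lig4 was high in naive replicate 4 (2.03 CPM), Xrcc4 in CFC10 replicate 2 (81.8 CPM) and Atr in CFC30 replicate 3 (38.4 CPM), while Parp1 was low in CFC30 replicate 1 (71.8 CPM). In HIP NeuN- nuclei, Brca2 was high in CFC10 replicate 3 (10.7 CPM).

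The other results listed here are differences between groups that were tested themselves in edgeR. The NeuN- against NeuN+ difference was not the same in HIP and mPFC for 8 members, with values (HIP minus mPFC, log2) of -0.89 for Parp1, -0.38 for Prkdc, -0.25 for Xrcc4, 0.81 for Lig1, 0.50 for Blm, 0.40 for Wrn, 0.26 for Atr and 0.25 for Xrcc5; region and kit version cannot be told apart. The CFC30 change of Wrn in mPFC differed between NeuN- and NeuN+ by 0.37, and the corticosterone change of Parp1 differed between PU.1+ and NeuN+ by -0.39.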

How the results depend on the processing

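Of 184 alternative counts of called members apart from left-out libraries, 171 were within 1.5 times of the reported count. In HIP NeuN+ at CFC10 the count of 1 became 0 with total-count scaling, 0 without the FPKM filter, 0 with the FPKM minimum on the mean of all groups and 2 in a fit of only the 2 groups compared. In HIP NeuN+ at CFC30 the count of 3 became 1 with DESeq2, 1 with total-count scaling, 1 without the FPKM filter (Blm, which was not among the 3), 1 with the minimum on the mean and 1 with only the 2 groups. The minimum on the mean leaves out Brca2 in HIP NeuN+. In mPFC NeuN- at CFC10 the count of 1 became 0 with DESeq2 and 0 without the FPKM filter. Without that filter, the CFC30 difference between mPFC fractions went from 1 to 2 (Exo1 joined Wrn) and the corticosterone difference between PU.1+ and NeuN+ from 1 to 0. Why these counts moved was not tested. The single genes followed were members called after CFC or corticosterone, in the tested differences between groups, or among the 8 described at baseline. Of their 680 alternative values, 579 kept their direction and call, 101 lost the call and 0 reversed. Rnf8, Dclre1c, Atm and Xrcc6 in the HIP comparison of fractions were not followed there. Their calls did turn from lower to higher with total-count scaling.

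With 1 library left out, the counts ranged from 5 to 9 (reported 8) for the contrast of regions, 0 to 1 (reported 1) for HIP NeuN+ at CFC10, 0 to 4 (reported 3) at CFC30, 5 to 8 (reported 9) for mPFC NeuN+ at CFC30, 0 to 1 (reported 1) for mPFC NeuN- at CFC10 and for the mPFC CFC30 difference between fractions, and 0 to 1 for the corticosterone differences of PU.1+ (reported 1), GFAP+ (reported 0) and 3X- (reported 0) from NeuN+. In mPFC NeuN+ at CFC10 they ranged from 4 to 6 (reported 6).

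Replicate numbers were shared between groups. Over all 15 fits, the correlations of same-numbered libraries ran from -0.25 to 0.38 (median 0.04). In 0 fits did every pair exceed 0.1, and the main fits held no replicate term. That rule cannot show that same-numbered libraries were unpaired. In the paper's gating, the populations were separated in sequence from hippocampal nuclei, so same-numbered libraries may share animals. The main tests between populations or fractions treated them as independent. Between saline populations, the median was 0.07 for same-numbered and -0.02 for other libraries. It was 0.09 against -0.06 between naive mPFC fractions and -0.01 against 0.02 between naive HIP fractions. With a replicate block, 9 members were called in mPFC NeuN+ at CFC30, 6 at CFC10 and 19 in the HIP comparison of fractions, the same numbers as without it, and the block moved no other count by more than 1.5 times. Depth limited the low genes most: H2afx rested on 4 to 22 counts per library.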
